A study of Mus musculus with 8 samples.

Results

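The mitosis and spindle genes are 40 protein-coding genes, chosen by symbol for their part in chromosome segregation and cell division, out of 55385 genes in the deposited tables. Their values were compared between 4 iKO and 4 WT libraries of neural stem and progenitor cells (NSPCs), the dividing cells of the young cortex that give rise to neurons and glia. The cells were sorted by flow cytometry from mouse cortex at postnatal day 7. The iKO mice carried Nestin-CreERT2, Ash2lf/f and tdTomato, and the WT mice carried Nestin-CreERT2 and tdTomato without the floxed allele, so both groups carried the recombinase transgene and the reporter. Nestin-CreERT2 is driven by the Nestin promoter and needs tamoxifen to act, and the labels used here give neither the time nor the dose of tamoxifen, nor the number of animals behind a library. All 40 genes could be matched by symbol, and all 40 passed the filter on low values, which asked for at least 1 TPM in at least 4 libraries. TPM, a measure of transcript abundance corrected for length and for the library's total, lets levels be compared between genes, but it keeps no sequencing depth.

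Cyclin-dependent kinase 1, with cyclin A2 and the B cyclins, drives entry into mitosis. The Aurora and Polo kinases then build the spindle, kinetochores attach chromosomes to it, and a checkpoint holds back the anaphase-promoting complex (APC/C, the ubiquitin ligase that ends mitosis) until attachment is complete. Transcription of these genes peaks in the G2 and M phases, through the MuvB complexes with B-MYB and FOXM1, which bind a short promoter element called the CHR (cell cycle genes homology region), and through NF-Y, which binds the CCAAT box. In the postnatal cortex this programme marks dividing progenitors. The targeted gene encodes ASH2L, a shared part of the SET1 and MLL histone methyltransferases, whose product, methylated lysine 4 of histone H3, marks active promoters.

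Promoter sequence is a feature that the choice of genes did not use. RefSeq start sites on GRCm38.p6 were found for 34 of the 40 genes, in 37 windows of 250 bases before to 50 bases after the start, and Aurkb, Ccna2, Incenp, Kif20a, Spc24 and Tpx2 had no entry. The letters searched were TTTGAA or TTCAAA for the CHR and CCAAT or ATTGG for the CCAAT box, which covers both strands. The CHR letters were in 30 of 37 windows (81.1%), against 17.9% of all 32851 windows of that length in the table and 12.2% of the 14615 windows of genes tested here. CCAAT letters were in 28 of 37 (75.7%), against 37.4% and 37.9%. Both were in 25 of 37 (67.6%), against 6.95% and 4.96%. A CHR match within 50 bases of the start was in 26 of 37 windows (70.3%), against 4.94% of all windows. Median GC content was 59% in the mitosis gene windows, 52.7% in all windows and 60.3% in those of tested genes. Of the 3 genes with 2 windows (Bub3, Ect2 and Prc1), the windows overlap, so that some matches are counted in both.

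The 150 bases before the start are printed 5′ to 3′ for 7 genes that the results turn on, with CHR and CCAAT letters in capitals. Birc5 and Ube2c are 2 genes that were higher in iKO, Cdc20 and Ckap2 were lower, and Cdk1, Top2a and Kif11 did not pass the test.
Birc5, chr11:117849087-117849236, plus strand: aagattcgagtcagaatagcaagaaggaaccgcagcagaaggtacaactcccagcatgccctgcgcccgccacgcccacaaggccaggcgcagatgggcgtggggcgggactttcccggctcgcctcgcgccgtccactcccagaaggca
Ube2c, chr2:164769779-164769928, plus strand: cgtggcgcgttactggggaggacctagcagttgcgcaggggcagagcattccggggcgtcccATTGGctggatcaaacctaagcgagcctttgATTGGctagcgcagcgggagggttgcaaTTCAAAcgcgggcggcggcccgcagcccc
Cdc20, chr4:118437344-118437493, minus strand: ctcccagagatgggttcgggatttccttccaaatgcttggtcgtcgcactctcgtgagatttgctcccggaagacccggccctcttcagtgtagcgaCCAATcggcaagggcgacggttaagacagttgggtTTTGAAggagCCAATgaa
Ckap2, chr8:22185820-22185969, minus strand: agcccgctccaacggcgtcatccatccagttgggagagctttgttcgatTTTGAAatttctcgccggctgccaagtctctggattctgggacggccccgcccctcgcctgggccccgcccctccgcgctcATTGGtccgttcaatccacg
Cdk1, chr10:69352913-69353062, minus strand: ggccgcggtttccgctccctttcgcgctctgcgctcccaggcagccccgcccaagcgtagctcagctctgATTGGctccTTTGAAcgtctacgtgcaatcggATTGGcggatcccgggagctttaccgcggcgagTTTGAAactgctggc
Top2a, chr11:99024190-99024339, minus strand: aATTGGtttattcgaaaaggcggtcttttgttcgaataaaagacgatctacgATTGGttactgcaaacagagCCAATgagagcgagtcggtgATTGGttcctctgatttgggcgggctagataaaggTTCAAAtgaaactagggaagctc
Kif11, chr19:37376232-37376381, plus strand: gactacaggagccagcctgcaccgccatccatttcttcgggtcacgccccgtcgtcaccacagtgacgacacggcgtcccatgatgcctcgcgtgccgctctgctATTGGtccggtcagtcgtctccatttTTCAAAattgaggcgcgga
In the Birc5 window no searched letters occur, whereas Ube2c has TTCAAA with its first base at -29 and ATTGG at -57 and -88, counting the base before the start as -1. Cdc20 has TTTGAA at -18 between CCAAT at -53 and -8. Cdk1 has TTTGAA at -15 and -71, each with ATTGG a short way upstream, at -48 and -80. Matches were found in genes of every outcome: the CHR letters were in 3 of 5 windows of genes higher in iKO, in 6 of 6 windows of genes lower and in 21 of 26 windows of genes that did not pass. A match describes letters, not bound factors.

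**Figure D1:**
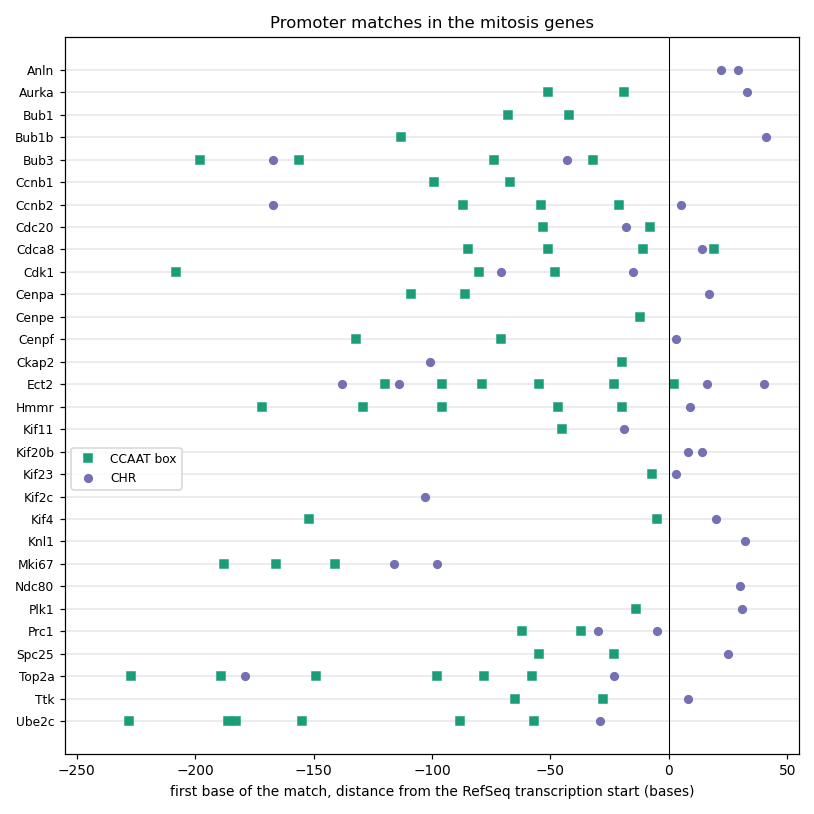
Position of CCAAT box letters (green squares) and CHR letters (purple circles) in the promoter windows of mitosis genes with at least 1 match; the x axis is the distance of the match's first base from the RefSeq start, in bases, and each row is a gene. CCAAT matches lie mostly before the start, with a median position of -69.5 over 66 matches, and CHR matches nearer to it, with a median of 3 over 38.

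The targeted gene, Ash2l, averaged 7.13 ± 0.714 TPM over the iKO libraries and 17.6 ± 1.33 TPM over the WT libraries (SD, n = 4), without overlap. Libraries correlated at 0.987 to 0.99 inside a group and at 0.962 to 0.964 across groups, and no library stood apart within its group. For the marker counts that follow, 20.7% of all 16413 tested genes were higher in iKO and 31.9% lower in the limma fit described below. Of the 10 stem and progenitor markers 2 were higher in iKO (20%) and 4 lower (40%), not far from those shares. Their sums were 3277 to 3360 TPM in iKO against 3868 to 3949 TPM in WT, and none was listed at 0. Of 8 oligodendrocyte precursor markers 1 was higher and 5 lower (1658 to 1734 and 1709 to 1731 TPM). Markers of other cell types differed between the groups. Of 10 neuroblast markers 9 were higher in iKO and 1 lower, with a summed level of 1981 to 2037 TPM in iKO libraries and 1581 to 1633 TPM in WT. Of 9 astrocyte markers 1 was higher and 7 lower (sums of 3673 to 3842 TPM in iKO, 5407 to 5591 TPM in WT), and of 12 microglia markers 1 was higher and 8 lower (618 to 642 and 741 to 794 TPM). Of 12 endothelial markers 10 were higher and none lower (922 to 988 TPM in iKO, 533 to 550.1 TPM in WT), and all 5 tested erythroid markers were higher (sums over 7 of 721 to 841 TPM and 69.98 to 81.1 TPM). Y-linked Ddx3y stood at 22.5 to 24.8 TPM in the iKO libraries and 49.5 to 56.8 TPM in WT. Xist stood at 18.9 to 20.1 TPM and 15.4 to 16.9 TPM. Their part in the values of the mitosis genes was not tested, beyond a fit with a sex score as covariate, and the score separates the groups completely, so genotype and sex composition cannot be told apart.

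Between iKO and WT, most transcripts of the mitotic machinery differed little: 6 of the 40 genes rose, 7 fell and 27 did not pass the test, a limma fit over all 16413 tested genes at an adjusted p under 0.05. The share called, 32.5%, compares with 52.6% of all tested genes, with 15% higher against 20.7%, and 17.5% lower against 31.9%. This lower share depends on the source. The comparison that the authors deposited called 16 of the 40 genes higher and 7 lower, which is not below the 53.9% it called among shared genes. The genes that rose were Birc5, Bub1b, Spc24, Ube2c, Cenpa and Nusap1, and those that fell were Ccnb2, Plk1, Anln, Knl1, Ckap2, Cdc20 and Aurkb. Of these 7 falls, those of Aurkb, Cdc20, Ckap2 and Knl1 were not called when libraries were rescaled by trimmed mean factors (adjusted p of 0.115, 0.061, 0.0585 and 0.141). The factors shifted the median of all genes from -0.06 to 0.00 and gave 12 of the 40 genes higher and 3 lower. With them 8506 of all 16413 tested genes were called in either direction, against 8629 without. The shares higher and lower over all genes were not counted with these factors. With the sex score as a covariate in limma, 1 of the 13 calls, that of Birc5, was kept (log2 fold change 0.51, adjusted p = 0.0282), and 0 genes were called lower. At an unadjusted p under 0.05 that fit had 4 of the 40 genes higher and 5 lower. Over all 16413 tested genes it called 423, at an adjusted p under 0.05. The share of all genes at the unadjusted threshold was not counted, so the 4 and 5 cannot be set against it. The log2 fold changes in that fit were 0.41 for Ube2c and Spc24, 0.35 for Bub1b, 0.23 for Cenpa and 0.08 for Nusap1. They were -0.51 for Knl1, -0.36 for Plk1, -0.31 for Anln, -0.30 for Aurkb, -0.28 for Ccnb2, -0.19 for Cdc20 and -0.15 for Ckap2, all in the direction found without it. Because the score separates the groups, these lost calls do not show that the differences go with sex.

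Differences were small in size. The median log2 fold change, taken as iKO minus WT after adding a pseudocount of 1 to TPM, was -0.01 over the 40 genes and -0.06 over all tested genes. The median absolute difference was 0.08 log2 units, against 0.22 over all tested genes. An absolute difference under 0.1 was found for 22 of 40 genes (55%), against 24.9% of all tested genes, and 1 of 40 (2.5%), Birc5, reached 0.5, against 18.6%. With a pseudocount of 0.1, 2 of 40 reached it, Birc5 and Ccnb2 (-0.57). Birc5 also passed the test, and 16.7% of all tested genes both passed and reached 0.5. The mitosis genes were also more abundant than most: their median level was 55 TPM, against 13.9 TPM over all tested genes. In 24 of the 27 genes that did not pass, the 95% interval of the difference lay between -0.3 and 0.3. In these bulk samples, fewer cells of a type and less RNA per cell cannot be told apart.

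**Figure D2:**
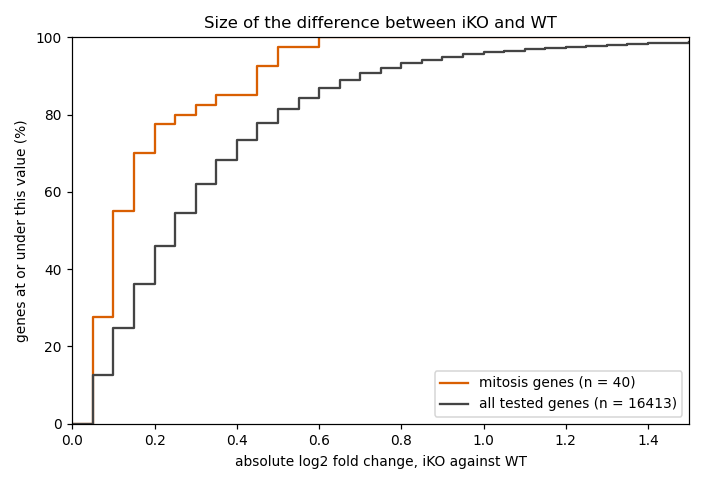
Cumulative share of genes (y axis, %) at or under each absolute log2 fold change between iKO and WT (x axis, TPM + 1 scale), for the 40 mitosis genes (orange) and all 16413 tested genes (grey). The orange curve lies above the grey one at small differences: 55% of mitosis genes and 24.9% of all tested genes were under 0.1.

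Groups did not overlap for 6 genes with every iKO value above WT and for 7 with every iKO value below, 32.5% of the 40 in all. The share was 49.2% over all tested genes, 19.2% above and 29.9% below. Of the 13 genes called, Bub1b and Knl1 had overlapping groups. The summed level of the 40 genes was 2960 to 3014 TPM in iKO (0.296% to 0.301% of all TPM) against 2803 to 2892 TPM in WT (0.28% to 0.289%). Every iKO sum lay above every WT sum, with means of 2981 and 2846 TPM. The 6 genes that rose summed to 785 TPM in iKO on average and 571 TPM in WT. They were picked by these same values, so their higher sum was set by the choice and is no separate result. The other 34 genes summed to 2187 to 2209 TPM in iKO, below the 2252 to 2293 TPM of WT, and the 27 that did not pass averaged 1610 TPM in both groups. Both of these sets were also defined by the calls: the 34 keep the 7 that fell, and the 27 were left for showing no call. Their sums are therefore no separate results either.

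**Figure D3:**
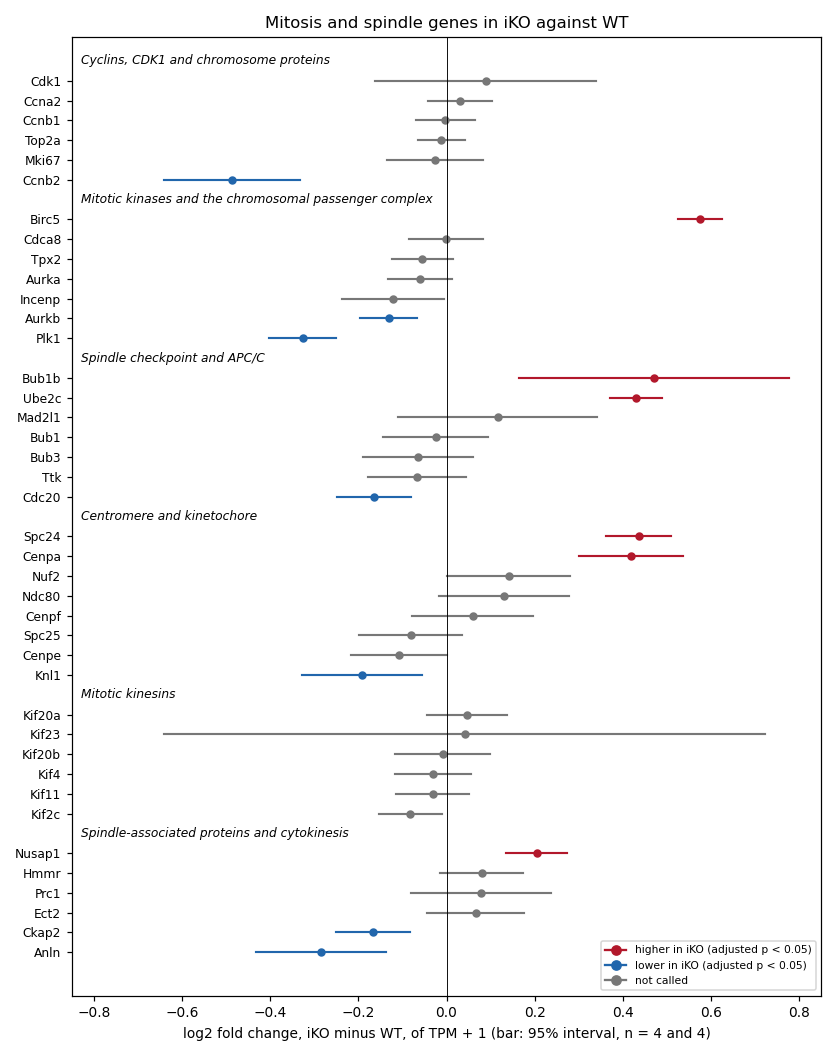
Log2 fold change of each of the 40 genes, iKO minus WT on the TPM + 1 scale (x axis), grouped by role, with points for the estimate and bars for its 95% interval (4 libraries a group). Red genes passed the test as higher, blue genes as lower, and grey genes did not pass; most grey intervals are narrow, and that of Kif23 spans -0.64 to 0.72.

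Cyclins, CDK1 and the 2 chromosome proteins of the list had 1 gene that fell, Ccnb2, and 5 that did not pass, with a summed level of 343 to 353 TPM in iKO libraries and 335 to 356 TPM in WT. Ccnb1, which encodes cyclin B1, stood at 117, 122, 120.0 and 116 TPM in iKO replicates 1 to 4 and at 124, 118, 119 and 115 TPM in WT replicates 1 to 4. The WT range encloses the iKO range (log2 fold change 0.00, 95% interval -0.07 to 0.06). Ccnb2, the gene of cyclin B2, stood at 4.2, 4.37, 4.41 and 4.47 TPM in iKO and at 6.31, 6.26, 6.17 and 7.38 TPM in WT. Every iKO library was lower, and the difference was -0.49 (SE 0.07, adjusted p = 0.000356). It was the least abundant of the 40 genes. The ratio of Ccnb1 to Ccnb2 was accordingly 25.9 to 27.9 in iKO and 15.6 to 19.7 in WT.

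Ccna2, the cyclin A2 gene, stood at 79.7 to 83.6 TPM in the iKO libraries and 76.9 to 83.7 TPM in WT, and its log2 fold change of 0.03 did not pass (adjusted p = 0.457). Ccna2 was called higher with trimmed mean factors (0.10, adjusted p = 0.0339), with the correction for length and GC content (0.12, adjusted p = 0.0135) and in the authors' deposited table (0.10, adjusted p = 0.00468). For Cdk1 the level was 18.5, 21.2, 19.8 and 19.2 TPM in iKO and 17.2, 20.9, 21.5 and 14.8 TPM in WT. The WT libraries spread more widely and enclosed all iKO values (95% interval -0.16 to 0.34, adjusted p = 0.528). Mki67, the gene of the proliferation antigen Ki-67 that coats mitotic chromosomes, stood at 20.7, 21.4, 21.4 and 20.2 TPM in iKO and at 21.6, 22.8, 20.98 and 19.99 TPM in WT. Its groups overlapped, at a log2 fold change of -0.03 (95% interval -0.14 to 0.08). Top2a encodes the topoisomerase that untangles sister chromatids, and stood at 101.1, 100.9, 101.0 and 104.6 TPM in iKO and at 102.6, 103.4, 103.9 and 101.0 TPM in WT. Its interval of -0.06 to 0.04 was the narrowest of the role.

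Among the mitotic kinases and the chromosomal passenger complex, 1 gene rose, 2 fell and 4 did not pass. The complex joins the kinase Aurora B to INCENP, survivin and borealin, and corrects faulty attachments at the centromere. Birc5, the survivin gene, stood at 251, 254, 245 and 245 TPM in iKO and at 165, 165, 172 and 165 TPM in WT. All iKO libraries lay well above all WT libraries, 1.49-fold on average (log2 fold change 0.58, SE 0.02, adjusted p = 1.43e-07). On the TPM + 1 scale this was the largest difference among the 40 genes, but Ccnb2, a low gene whose change that scale shrinks, had a ratio of means of 0.668, and without WT replicate 3 Bub1b (0.61) exceeded Birc5 (0.59). Aurkb, the Aurora B gene, went the other way, with 143, 150, 149 and 146 TPM in iKO and 166, 161, 163 and 154 TPM in WT. Every iKO value was lower, though by little (log2 fold change -0.13, SE 0.03, adjusted p = 0.00435), and trimmed mean factors ended the call. The ratio of Birc5 to Aurkb, 2 genes called in opposite directions, was accordingly 1.64 to 1.76 in iKO and 0.995 to 1.07 in WT.

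Cdca8, which encodes borealin, stood at 245, 261, 237 and 247 TPM in iKO and at 232, 254, 251 and 253 TPM in WT, with overlapping groups (log2 fold change 0.00, adjusted p = 0.993). The authors' deposited table gave Cdca8 a log2 fold change of 0.21 with an adjusted p of 5.33e-14, so the 2 deposited sources differ for this gene. Incenp, the scaffold, stood at 49.4 to 54.2 TPM in the iKO libraries and 52.3 to 59.9 TPM in WT, and did not pass (log2 fold change -0.12, adjusted p = 0.076). Plk1, the Polo-like kinase gene, stood at 36.8, 36.2, 36.5 and 35.7 TPM in iKO and at 46.1, 47.6, 44.0 and 45.5 TPM in WT. The groups were clearly apart (log2 fold change -0.33, SE 0.03, adjusted p = 5.23e-05). Aurka, the spindle pole kinase gene, stood at 85.7 to 92.3 TPM in the iKO libraries and 89.2 to 94.9 TPM in WT. Its activator gene Tpx2 stood at 85.8 to 90.3 and 88.5 to 94.4 TPM. Neither passed, at log2 fold changes of -0.06 for both.

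Of the 7 spindle checkpoint and APC/C genes, 2 rose, 1 fell and 4 did not pass. Ube2c encodes the ubiquitin-conjugating enzyme of the APC/C, and stood at 185, 174, 180 and 174 TPM in iKO and at 131, 133, 134 and 130 TPM in WT. The groups were far apart relative to their spread (log2 fold change 0.43, SE 0.03, adjusted p = 2.03e-06). Cdc20, the APC/C activator gene and the most abundant of the 40, stood at 252, 229, 241 and 244 TPM in iKO and at 282, 270.2, 276 and 255 TPM in WT. Every iKO value was lower, by -0.17 on the log2 scale (SE 0.04, adjusted p = 0.00515). The ratio of Ube2c to Cdc20 was accordingly 0.713 to 0.76 in iKO and 0.466 to 0.508 in WT.

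Bub1b encodes BUBR1, a subunit of the checkpoint complex that blocks CDC20. It stood at 53.0, 56.2, 45.6 and 53.0 TPM in iKO and at 34.4, 34.6, 50.4 and 31.5 TPM in WT. WT replicate 3 lay among the iKO libraries while the other WT libraries were below all of them, and the difference was 0.47 (SE 0.14, adjusted p = 0.017). For Bub1b the log2 fold change in the authors' deposited table was smaller, 0.17. The checkpoint genes Bub1 (25.3 to 29.8 TPM in iKO, 26.6 to 28 TPM in WT), Bub3 (41.6 to 49.7 and 46.1 to 49.8 TPM) and Ttk (15.6 to 16.8 and 16.1 to 18.3 TPM) overlapped and did not pass. For Mad2l1, the MAD2 gene, iKO values of 16.4, 23.3, 17.2 and 20.6 TPM were more scattered than WT values of 17.5, 17.7, 18.2 and 17.2 TPM (adjusted p = 0.357).

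Centromere and kinetochore genes had 2 members higher, 1 lower and 5 that did not pass. Spc24 and Spc25 form one end of the NDC80 complex, which holds microtubules at the kinetochore, and Ndc80 and Nuf2 form the other. Spc24 stood at 106, 108, 105 and 104 TPM in iKO and at 75.8, 81.9, 79.5 and 75.1 TPM in WT. No library overlapped (log2 fold change 0.44, SE 0.03, adjusted p = 7.54e-06). Its partner Spc25 stood at 50.03, 50.8, 54.3 and 57.7 TPM in iKO and at 56.2, 54.4, 59.6 and 55.1 TPM in WT, and did not pass (log2 fold change -0.08, adjusted p = 0.213). Spc24 was 1.81 to 2.13 times Spc25 in iKO and 1.33 to 1.51 times in WT. The ratio of Nuf2 to Ndc80 overlapped, at 2.38 to 2.75 in iKO and 2.10 to 2.97 in WT. Ndc80 stood at 32.3 to 35 TPM in the iKO libraries and 28.75 to 35.1 TPM in WT, and Nuf2 at 80.6 to 96.5 and 73.7 to 85.8 TPM. Neither passed (log2 fold changes 0.13 and 0.14, adjusted p = 0.123 and 0.0826), but trimmed mean factors brought both past the threshold as higher (adjusted p of 0.0296 and 0.0167).

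Cenpa, the gene of the histone H3 variant that marks centromeres, stood at 130.0, 149.5, 131.7 and 132.4 TPM in iKO and at 97.5, 104, 107 and 96.6 TPM in WT. Each iKO library was higher, iKO replicate 2 most of all (log2 fold change 0.42, SE 0.05, adjusted p = 0.00017). Knl1, which encodes the platform on which checkpoint proteins gather, stood at 71.7, 73.0, 80.1 and 73.2 TPM in iKO and at 92.9, 78.0, 89.3 and 81.1 TPM in WT. Its groups overlapped by 1 library each, and the difference of -0.19 (SE 0.06, adjusted p = 0.0251) was not called without any one of iKO replicates 1, 2 and 4 and WT replicates 1 and 3, at -0.18 to -0.15 (adjusted p of 0.0578 to 0.0642), nor after a correction for length and GC content (-0.06, adjusted p = 0.455). The long coiled-coil genes Cenpe (27.0 to 27.5 TPM in iKO, 27.0 to 31.1 TPM in WT) and Cenpf (35.5 to 43.6 and 35.7 to 38.6 TPM) did not pass.

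None of the 6 mitotic kinesin genes passed the test, while 1 gene had an unadjusted p under 0.05. That gene, Kif2c, encodes the microtubule depolymerase MCAK and stood at 50.9, 49.1, 49.1 and 48.9 TPM in iKO and at 51.5, 51.7, 54.7 and 52.1 TPM in WT. Every iKO value was lower, but by only 0.08 log2 units (log2 fold change -0.08, adjusted p = 0.053). The authors' deposited table called 1 of the 6, Kif20a, as higher (log2 fold change 0.09, adjusted p = 0.0094). In TPM, Kif20a, which encodes a kinesin of the central spindle and was the most abundant of the 6, stood at 69.7, 69.2, 67.6 and 68.6 in iKO and at 63.96, 63.3, 71.2 and 67.9 in WT. Its groups overlapped, and it was called higher with trimmed mean factors (0.12, adjusted p = 0.0388) and with the correction for length and GC content (0.14, adjusted p = 0.02). Kif11, the gene of the bipolar spindle motor Eg5, stood at 52.4 to 54.6 TPM and 51.6 to 56.7 TPM, and Kif4, a chromosome-bound kinesin gene on the X chromosome, at 20.2 to 21.7 TPM and 21.3 to 21.9 TPM. Kif20b stood at 57.4 to 62.8 TPM in the iKO libraries and 58.4 to 65.7 TPM in WT.

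Kif23, which encodes the MKLP1 subunit of centralspindlin, was the most variable of the 40 genes. Its values were 32.0, 21.45, 30.4 and 30.5 TPM in iKO and 33.1, 15.4, 23.1 and 47.7 TPM in WT. The coefficient of variation was 46.7% in WT and 16.9% in iKO, against medians over the 40 genes of 4.17% and 3.45%. A difference in either direction was not detectable here, since the 95% interval ran from -0.64 to 0.72. The authors' deposited table gave Kif23 a log2 fold change of -0.04.

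Spindle-associated and cytokinesis genes had 1 member higher, 2 lower and 3 that did not pass. Nusap1, which encodes a microtubule bundling protein, stood at 65.8, 63.9, 64.7 and 63.3 TPM in iKO and at 57.3, 55.9, 56.6 and 53.4 TPM in WT. Each group was tight and they did not overlap (log2 fold change 0.20, SE 0.03, adjusted p = 0.000563). Ckap2, a spindle microtubule protein gene, stood at 71.0, 69.1, 75.1 and 74.2 TPM in iKO and at 83.7, 79.9, 83.7 and 78.4 TPM in WT. All iKO libraries were lower (log2 fold change -0.17, SE 0.04, adjusted p = 0.00467), and trimmed mean factors ended the call, as did a correction for length and GC content (adjusted p = 0.0833). Anln, the gene of anillin, which scaffolds the contractile ring, stood at 9.93, 11.7, 11.3 and 10.5 TPM in iKO and at 12.5, 14.4, 13.5 and 13.6 TPM in WT. The groups were separate (log2 fold change -0.29, SE 0.06, adjusted p = 0.00545).

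Hmmr, a spindle pole protein gene, stood at 37.7, 37.7, 37.0 and 37.0 TPM in iKO and at 36.4, 37.0, 35.2 and 32.8 TPM in WT. Its lowest iKO value was only just above its highest WT value, and it did not pass (log2 fold change 0.08, adjusted p = 0.139), though it did with trimmed mean factors (0.15, adjusted p = 0.013). Prc1, which bundles the midzone microtubules, stood at 94.6, 79.5, 83.02 and 76.3 TPM in iKO and at 76.7, 82.4, 72.7 and 83.2 TPM in WT. The groups overlapped, with iKO replicate 1 above all others, and Prc1 passed only in the authors' deposited table (0.14, adjusted p = 0.000277). Ect2, the gene of the exchange factor that activates RhoA at the division plane, stood at 36.2 to 39.3 and 33.3 to 38.1 TPM. Its groups overlapped too, and it was called higher with trimmed mean factors (0.14, adjusted p = 0.0398), with the correction for length and GC content (0.15, adjusted p = 0.0257) and in the authors' deposited table (0.10, adjusted p = 0.0484).

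**Figure D4:**
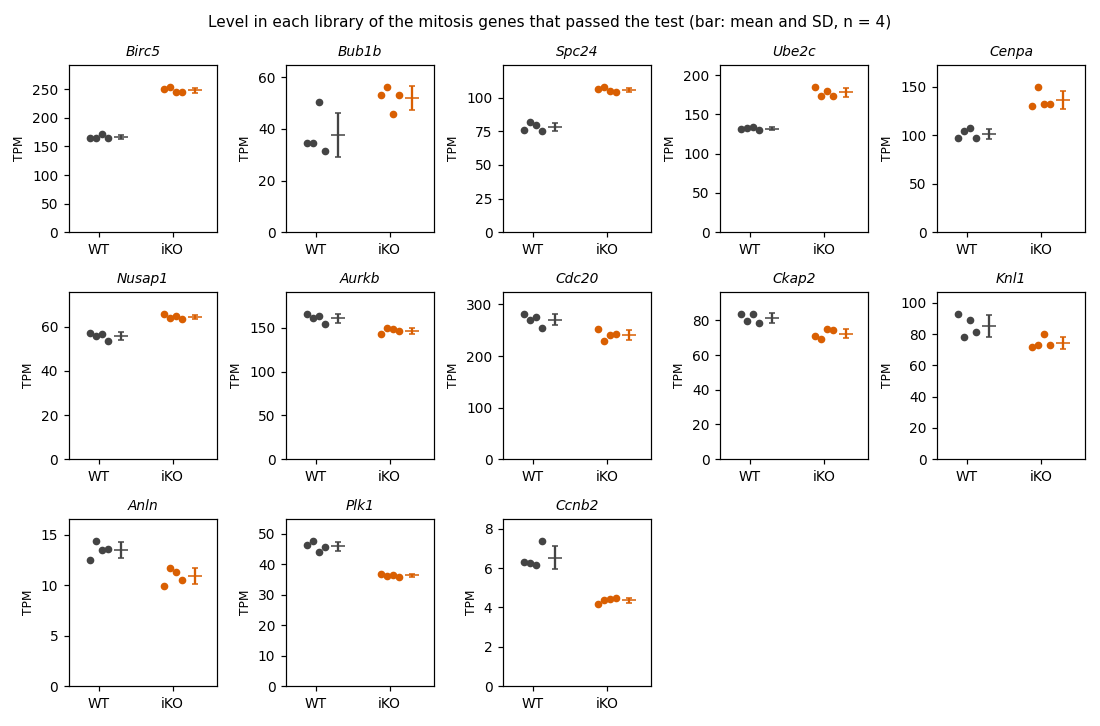
TPM (y axis, from 0) in each of the 4 WT (grey) and 4 iKO (orange) libraries for the 13 genes that passed the test, with the mean and SD beside the points. Groups are separate in 11 panels and overlap in Bub1b, where WT replicate 3 is at 50.4 TPM, and in Knl1.

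A second deposited source, the authors' own comparison, gave the same direction for all 13 genes and called each of them. Of the 7 falls, 5 were over 1.5 times smaller in the authors' deposited table: Anln at -0.14, Knl1 at -0.12, Ckap2 at -0.09, Aurkb at -0.08 and Cdc20 at -0.06. It called 16 of the 40 genes higher and 7 lower, and over the 16412 genes that it shares with the fit made here it called 27.9% higher and 26.1% lower, or 53.9% in all. In this source, unlike in the fit made here, the 40 genes were not called less often than all genes. Over all 29420 genes with a log2 fold change and a raw p-value in that table the shares were 17.1%, 16.7% and 33.9%. Both sources come from the same libraries, so this is no independent support. Of the 40 genes 27 had the same sign in both, and the median in the authors' deposited table was 0.06. Pearson's r between the 2 sets of log2 fold changes was 0.918 across the 40 genes, which are not independent replicates. Opposite signs with a call in the authors' deposited table occurred for Cdca8 (above), Mki67 (log2 fold change 0.08, adjusted p = 0.0317) and Tpx2 (0.06, adjusted p = 0.0367). Spearman's rho between transcript length and the log2 fold change, as a description across genes, was 0.02 over the 40 genes and -0.11 over 16402 tested genes.

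**Figure D5:**
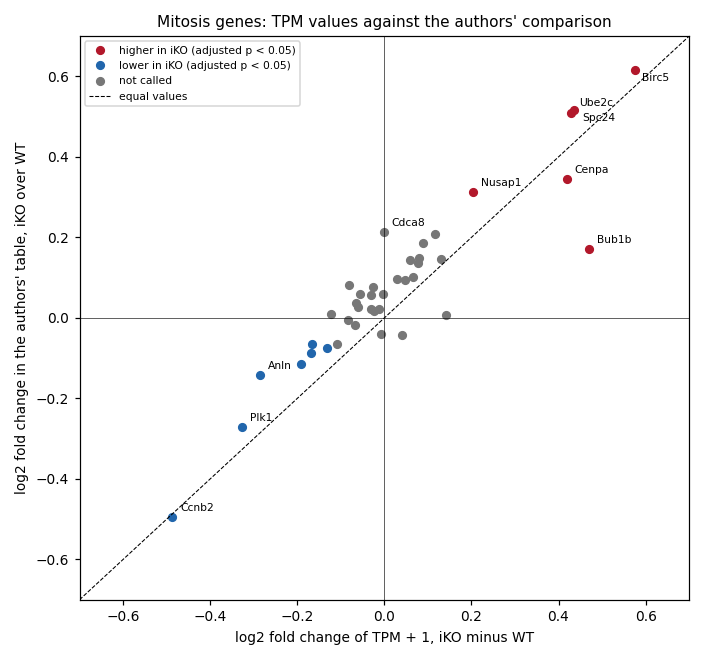
Log2 fold change of each of the 40 genes from TPM + 1 (x axis) against that in the authors' deposited table (y axis); colours give the call from TPM and the dashed line marks equal values. The called genes share their sign in both sources, most points lie above the line, and Bub1b (0.47 and 0.17) and Cdca8 (0.00 and 0.21) lie far from it.

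Some values rest on shared sequence. The protocol in the labels does not state that strand was kept, and exons of Ube2c overlap 592 bases of Tnnc2 on the opposite strand, which stood at only 0.222 TPM in iKO libraries and 0.127 TPM in WT. Nusap1 overlaps 172 bases of Oip5 (8.14 and 6.85 TPM), Plk1 156 bases of Gm44985 (0.446 and 0.436 TPM) and Cdc20 53 bases of Elovl1 (44.3 and 50.7 TPM). Cdca8 overlaps 232 bases of 9930104L06Rik (38.6 and 36.5 TPM) and Ccna2 510 of Exosc9 (130.0 and 132.7 TPM). Kif20a overlaps 1271 bases of Cdc23 (92.77 and 89.65 TPM), and Prc1 911 of Rccd1 (12.24 and 14.91 TPM). Kif4 overlaps 832 bases of Pdzd11, which was higher in iKO (37.98 and 21.71 TPM). The part of these overlaps in the values was not tested. Near-identical copies of Ccnb1 exist, of which the highest, Ccnb1-ps, reached 0.185 TPM. Short matches to Birc5, Cenpf, Knl1, Mad2l1, Mki67 and Ndc80 belong to genes listed at 0 in every library.

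Other genes of the mitotic machinery were taken from 6 further lists, against the same 20.7% higher and 31.9% lower over all tested genes. Of 31 kinetochore and centromere partners 12 rose, 6 fell and 13 did not pass. Their median log2 fold change was 0.05, against -0.06 over all tested genes, and values below are means ± SD (n = 4), WT first. Cenpx, the gene of a histone-fold protein, rose from 49.97 ± 3.63 to 105 ± 6.82 TPM, and Cenpm from 57.8 ± 2.66 to 89.7 ± 4.58 TPM. Ska1, of the microtubule-binding SKA complex, rose from 8.39 ± 0.505 to 12.7 ± 0.696 TPM, and Knstrn, which encodes a spindle protein, from 157 ± 1.61 to 194 ± 3.15 TPM. Of 20 APC/C subunits and regulators 7 rose, 2 fell and 11 did not pass (median 0.08). Anapc11, the RING subunit that works with UBE2C, rose from 97.7 ± 5.04 to 175 ± 2.45 TPM, and Ube2s, which extends the ubiquitin chains that UBE2C begins, from 16.9 ± 1.48 to 23.9 ± 1.67 TPM. The subunit gene Cdc26 rose from 144 ± 5.72 to 176 ± 2.45 TPM, and Anapc10 from 32.4 ± 3.71 to 45 ± 2.3 TPM.

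Of 22 condensin, cohesin and separase genes 4 rose, 6 fell and 12 did not pass (median -0.03), with the cohesin loader gene Nipbl falling from 36.6 ± 0.557 to 30.2 ± 0.455 TPM and the securin gene Pttg1 rising from 118 ± 7.71 to 136 ± 6.07 TPM. Of the condensin genes, Smc4 fell from 153 ± 6.95 to 137 ± 1.62 TPM and Ncaph from 110 ± 4.2 to 97.9 ± 4.15 TPM. The authors' deposited table did not call Smc4 (log2 fold change -0.04, adjusted p = 0.2425), while it called Ncaph lower (-0.12, adjusted p = 0.000585). Other kinesins and spindle proteins had 3 of 26 higher, 7 lower and 16 that did not pass (median -0.08). Ckap5, a microtubule polymerase gene, fell from 72.6 ± 1.78 to 52.95 ± 1.78 TPM, Gtse1 from 31.9 ± 0.806 to 23.7 ± 0.973 TPM and Psrc1 from 70.98 ± 2.85 to 58.7 ± 1.9 TPM, while the tubulin-binding protein gene Stmn1 rose from 1841 ± 55 to 2211 ± 46.1 TPM. Cytokinesis partners had 3 of 13 tested genes higher, 6 lower and 4 that did not pass (median -0.08), and Chmp4b was below the filter. Cdca3 rose from 214 ± 5.39 to 262 ± 9.34 TPM, and the septin gene Sept9 fell from 140 ± 1.01 to 126 ± 2.01 TPM. Of the genes of membrane abscission, Pdcd6ip fell from 44.3 ± 4.5 to 31.9 ± 1.76 TPM and Tsg101 rose from 376 ± 5.54 to 405 ± 7.39 TPM. In the authors' deposited table the log2 fold change of Pdcd6ip was smaller, -0.115 against -0.454 here, and that of Tsg101 larger, 0.266 against 0.108.

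CDK1 regulators and mitotic transcription genes had 2 of 24 higher, 7 lower and 15 that did not pass (median -0.02). Cdc25b, the gene of a phosphatase that activates CDK1, fell from 29.6 ± 1.74 to 17.7 ± 0.603 TPM. Cks2, which encodes a small CDK-binding subunit, fell from 5.56 ± 1.18 to 1.72 ± 0.662 TPM, and E2f2 from 8.48 ± 0.633 to 6.38 ± 0.76 TPM. Foxm1, one of the factors that act through the CHR, rose from 13.8 ± 1.48 to 18.1 ± 1.24 TPM (log2 fold change 0.37, adjusted p = 0.00384).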

How the data were processed

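Libraries of sorted NSPCs were made by Smart-Seq2, which copies whole transcripts, and read from both ends on a HiSeq instrument, per the labels' protocols. The authors deposited TPM for 55385 genes in 8 libraries. How reads were aligned and quantified, and on which genome build, was not given in the sources used here, and depth is unknown. Another deposited table holds the authors' comparison: a mean normalized signal, a log2 fold change and standard error, a test statistic (a score), and raw and adjusted p-value, per the file headers. Groups and replicate numbers came from the sample titles. No source ties a library to 1 animal, so p-values measure the spread between libraries, which may be technical.

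Log2 values of TPM plus a pseudocount of 1 were fitted by limma 3.58.1 (R 4.3.3), with its trend and robust options, over the 16413 genes with at least 1 TPM in at least 4 libraries. P-values are two-sided, with Benjamini-Hochberg adjustment over those genes. This scale understates changes of low genes. The procedure was run on simulated data with independent normal noise and few changed genes. These data have many more changed genes, so that run does not show how the procedure behaves here. Alternatives were trimmed mean factors (unweighted), quantile normalization, pseudocounts of 0.1 and 5, leaving out the filter, requiring a mean of 5 TPM, the replicate number as a block, a sex score (Ddx3y, Eif2s3y, Kdm5d and Uty minus Xist) as covariate, leaving out each library, and the authors' comparison. Removal of a loess trend (span 0.3) on transcript length and GC content was added after seeing the data. The genes and lists were chosen with earlier results of these data known. Values in every library are given for genes that passed or did not overlap and for the most abundant of each role; up to 4 genes of each further list, by smallest unadjusted p, are named. Transcripts came from GENCODE M21, copies were sought with blastn 2.17.0 (95% identity over 50% of the shorter transcript), and figures were drawn with matplotlib 3.10.9.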

Additional observations from a re-analysis of the deposited data

Results flagged for a closer look

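Within groups of 4 libraries, 10 of 80 groups (40 genes in 2 groups) held a library far from the other 3, by Dixon's criterion; chance flags about 1 in 20 groups. In WT replicate 3 these were Bub1b at 50.4 TPM (others 31.5 to 34.6), Birc5 at 171.7 TPM (others 164.5 to 165.3) and Kif2c at 54.7 TPM (others 51.5 to 52.1). WT replicate 4 had Ccnb2 at 7.38 TPM (others 6.17 to 6.31), and WT replicate 1 had Cdca8 at 232 TPM (others 251 to 254). In iKO replicate 2, Cenpa stood at 149.5 TPM (others 130.0 to 132.4) and Kif23 at 21.45 TPM (others 30.4 to 32.0). In iKO replicate 4, Top2a stood at 104.6 TPM (others 100.9 to 101.1) and Incenp at 49.4 TPM (others 53.7 to 54.2), and in iKO replicate 1 Kif2c stood at 50.9 TPM (others 48.9 to 49.1). Without WT replicate 3, Bub1b's log2 fold change was 0.61 (adjusted p = 0.000275).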

How the results depend on the processing

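The 6 rises and 7 falls were the same genes with pseudocounts of 0.1 and 5, without a filter, at a mean TPM of at least 5 and with the replicate block, which gave 6 higher and 7 lower (median -0.01). Same-numbered libraries did not deviate together (correlations of -0.0445 to 0.000694). This gives no sign that the numbers pair the samples, but with so few libraries it cannot exclude pairing. Leaving out each library in turn gave 6 to 7 genes higher, 6 to 8 lower and medians of -0.027 to -0.00383. These fits tested 16020 to 16152 genes and called 7808 to 8003 of them in either direction. Trimmed mean factors gave 12 higher and 3 lower (median 0.0598), quantile normalization 8 higher and 7 lower (0.0215), and the length and GC trend removed 14 higher and 5 lower (0.0811). Over all tested genes these settings called 8506 of 16413, 8408 of 16413 and 8372 of 16402 in either direction, in that order, against 8629 of 16413 in the main fit. The median log2 fold change over all tested genes was 0.0013, 0.00458 and 0.000201 in the same order, against -0.0609 in the main fit. Shares higher and lower over all genes were not counted for these settings. The authors' comparison gave 16 higher and 7 lower (0.0578). With the sex score as covariate 1 was higher, Birc5 (log2 fold change 0.51, adjusted p = 0.0282), and 0 lower (median -0.0784), with 4 and 5 at an unadjusted p under 0.05 in limma. That fit called 423 of 16413 tested genes at an adjusted p under 0.05, and the share at the unadjusted threshold was not counted. Lost calls in that fit kept their direction, among them Ube2c (0.413), Spc24 (0.414), Plk1 (-0.36), Anln (-0.311) and Cdc20 (-0.192). The cause of these shifts was not tested. No called gene changed direction in any of the 18 alternatives. Genes that did not pass and were called with the opposite sign were Top2a (0.0833) with the length and GC trend removed, and Mki67 (0.0761), Tpx2 (0.0588) and Cdca8 (0.213) in the authors' comparison. Called with an unchanged sign were Ccna2, Kif20a, Hmmr and Ect2 by both of these and by trimmed mean factors, Cenpf by both of these, and Mad2l1 and Prc1 by the authors' comparison. Ndc80 and Nuf2 were called by the length and GC correction and trimmed mean factors, Hmmr and Ndc80 by quantile normalization, and Kif2c, Incenp, Cenpe, Ndc80 and Nuf2 when single libraries were left out. The deposited values keep no depth, so counting error could not be given for any gene.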
